A study of Mus musculus with 12 samples.

Results

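Trem2, Tyrobp, Gpnmb, Cd9, Spp1, Lgals3 and Fabp5 were taken as a fixed set of 7 genes that mark lipid-associated macrophages, and all 7 were found by symbol among the 12339 genes in the deposited count table. They were followed in thioglycolate-elicited peritoneal macrophages of mice with or without myeloid protein kinase C epsilon, a lipid-activated signalling kinase encoded by Prkce, on 2 diets. Lipid-associated macrophages are the cells that take up and store lipid in adipose tissue, fatty liver and atherosclerotic plaque, and in plaque they overlap with foam cells. TREM2 is a surface receptor for lipids, lipoproteins and cell debris that has no signalling motif of its own. It signals through the paired adaptor TYROBP (DAP12) to the kinase SYK, and mice that lack it form fewer cells of this type.

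The 4 groups had 3 libraries each. WT chow and WT HFD came from wild-type mice, and meKO chow and meKO HFD from mice labelled meKO, which the title of the series ties to loss of the kinase in myeloid cells. The mice were 8 weeks old at the start, and chow animals differ from HFD animals in the diet alone as far as the labels tell. The Western-type high-fat diet (HFD) or chow was given for 4 weeks, after which thioglycolate was used to elicit macrophages, which were washed out of the peritoneal cavity. The labels name neither the Cre driver nor the floxed allele, and they do not say whether a library is a single animal. The p-values therefore measure the spread between these libraries, which may be technical in part. Replicate numbers follow sample order and pair nothing across groups.

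Library totals ran from 25845000 to 37282800 counts. Prkce was at 2.01 to 4.44 CPM (counts scaled to library size) in the 6 WT libraries and at 0.950 to 1.78 CPM in the 6 meKO libraries. Lyz2, the macrophage lysozyme gene, was at 30482 to 53835 CPM in the WT libraries. In meKO it was at 69.3 CPM in chow replicate 2 and at 16293 to 21309 CPM in the other libraries. Every meKO library was thus below every WT library. Some of the results that use meKO chow are also given without meKO chow replicate 2. WT chow replicates 1 and 2 leaned to long transcripts: the deviation of a library from the mean had a Spearman's rho with transcript length, over 11532 genes, of 0.60 and 0.63 there, against -0.46 to 0.14 in the other 10 libraries. The 8 macrophage markers (Adgre1, Csf1r, Cd68 and others) summed to 5146 to 6439 CPM in every library. Summed markers of other cells were far lower, from 5.40 to 17.6 CPM for T and NK cells up to 226 to 1588 CPM for resident large peritoneal macrophages.

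The 7 genes are spread over 6 chromosomes of the mouse genome (positions on GRCm38, annotation GENCODE M21). Trem2 lies at chr17:48346401-48354147 on the plus strand, Tyrobp at chr7:30413760-30417585, Gpnmb at chr6:49036546-49070929, Spp1 at chr5:104435118-104441050, Lgals3 at chr14:47367751-47386160 and Fabp5 at chr3:10012548-10016607, all on the plus strand. Cd9 lies at chr6:125460266-125494791 on the minus strand. It overlaps the plus-strand genes Gm26728 and Gm28809, and since the strand setting of the counting is not given in the sources used here, reads from them cannot be told apart from Cd9 reads. Spp1 overlaps Gm42793 on its own strand, with which it shares 2.06% of its 50-base words. Fabp5 shares 21.1% of its 50-base words with 5 other genes, mainly the processed pseudogenes Gm6166, Gm14328 and Fabp5l2, so its counts are uncertain.

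Promoter windows were available from RefSeq (GRCm38.p6) for 5 of the 7 genes. Those of Trem2 and Cd9 are shown because these genes moved together with diet, and that of Gpnmb because it moved the other way. Capitals mark the letters TGANTCA (the AP-1 motif) in Trem2 and Gpnmb and GGGCGG (the GC box) in Cd9. The windows are chr17:48346151-48346400 (plus strand) for Trem2, chr6:125494792-125495010 (minus strand) for Cd9 and chr6:49036268-49036533 (plus strand) for Gpnmb, each read 5′ to 3′ along the gene.
Trem2: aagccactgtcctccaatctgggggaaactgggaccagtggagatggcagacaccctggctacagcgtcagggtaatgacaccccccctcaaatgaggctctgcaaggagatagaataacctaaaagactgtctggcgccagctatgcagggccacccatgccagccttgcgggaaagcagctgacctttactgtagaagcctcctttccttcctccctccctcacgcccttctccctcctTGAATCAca
Cd9: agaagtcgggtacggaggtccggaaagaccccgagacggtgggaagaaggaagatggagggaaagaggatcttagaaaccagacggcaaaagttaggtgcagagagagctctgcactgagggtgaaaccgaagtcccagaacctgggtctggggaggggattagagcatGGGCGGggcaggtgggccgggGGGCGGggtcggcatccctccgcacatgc
Gpnmb: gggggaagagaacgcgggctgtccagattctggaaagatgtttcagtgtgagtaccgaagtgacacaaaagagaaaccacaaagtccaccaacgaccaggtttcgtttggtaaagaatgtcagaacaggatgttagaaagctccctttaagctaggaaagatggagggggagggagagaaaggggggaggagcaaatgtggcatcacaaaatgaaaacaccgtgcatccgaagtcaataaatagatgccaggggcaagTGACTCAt

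Both strands were searched for 5 motifs in windows from 250 bases before to 50 bases after the RefSeq start site. In the windows with a match this site was 48346401 for Trem2, as in GENCODE. It differed from the GENCODE start for Gpnmb (49036518), Cd9 (125494760), Lgals3 (47373860) and Spp1 (104435111). Trem2 held TGAATCA starting 9 bases before its start site, and Gpnmb held TGACTCA starting 9 bases after its own, while 7.81% of 32851 mouse promoter windows held a TGANTCA match. Cd9 held 2 GC boxes and Lgals3 also held 2, against 35.7% of all windows with at least 1. GAGGAA, the core recognised by the macrophage factor PU.1, occurred in Spp1 and Trem2 and in 28.3% of all windows. CACGTG (E-box, in 7.15% of windows) and TCATGTG (M-box, in 3.77%), the letters read by the MiT/TFE lysosomal factors, occurred in none of the windows of these 5 genes. These matches are descriptions of letters, and binding was not measured.

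All 7 genes were abundant, so depth did not limit them. Each had between 16970 and 854567 counts in every library, and together they took 2.86% to 3.89% of all counts. Levels of different genes are compared here only per length, as CPM per kilobase of transcript. On that scale Gpnmb, a lysosomal and cell-surface glycoprotein, had a mean of 7694 ± 1396 (SD, n = 12) and ranked 8 of 11532 genes with a known length. Lgals3 (galectin-3) ranked 15 with 4623 ± 865, Spp1 (osteopontin) 22 with 3747 ± 1104, and Tyrobp 27 with 2487 ± 604. Fabp5, Trem2 and Cd9 ranked 86, 95 and 110, with means of 840, 775 and 689 CPM per kilobase. The adaptor was therefore more abundant per length than the receptor in these libraries, with the lowest Tyrobp value, 1516, above the highest Trem2 value, 1098.

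**Figure D1:**
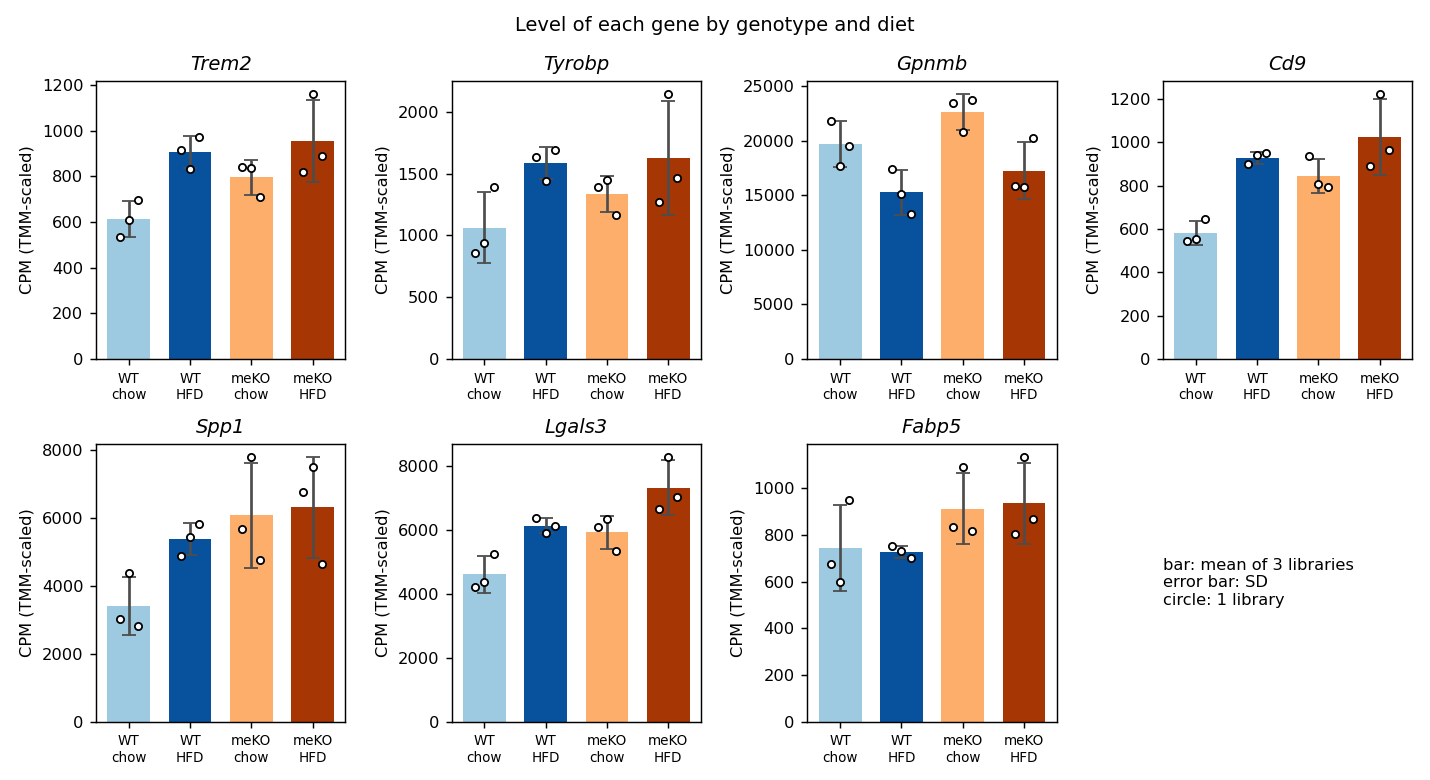
TMM-scaled CPM of each gene (vertical axes) in the 4 groups (horizontal axes), with circles for single libraries, bars for the mean of 3 libraries and error bars for the SD. WT chow is the lowest group for 5 of the 7 genes, whereas Gpnmb is higher in both chow groups than in the HFD group of the same genotype.

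In WT macrophages the high-fat diet went with more Trem2, Cd9, Spp1 and Lgals3 mRNA. These 4 of the 7 genes passed the threshold, all higher, by 1.33-fold to 1.60-fold. The threshold was an adjusted p under 0.05 in edgeR's quasi-likelihood test over all genes, which called 21.3% of all genes in this contrast, with 9.5% of all genes higher. Groups did not overlap for 6 of the 7 genes, 5 of them higher on HFD, against 39.3% of all genes in either direction. The median log2 fold change of the 7 genes was 0.56, and that of all genes was -0.03. After a correction for transcript length and GC content, described below, these medians were 0.29 and 0.02. Because the RNA is from bulk cells, more cells of a type and more RNA per cell cannot be told apart.

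The receptor and its adaptor were close to each other. Trem2 stood at 535, 610 and 696 CPM in WT chow and at 915, 834 and 971 CPM in WT HFD, so that every HFD library was above every chow library. Its log2 fold change was 0.56 ± 0.14 (SE; edgeR adjusted p = 0.0218). Tyrobp stood at 855, 941 and 1390 CPM in WT chow and at 1633, 1439 and 1690 CPM in WT HFD, with no overlap although WT chow replicate 3 came near. Its log2 fold change of 0.58 ± 0.20 was as large as that of Trem2 but did not pass (edgeR adjusted p = 0.0539); DESeq2 (0.0240) and limma-voom (0.0472) called it.

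Among the surface and secreted products, Cd9, a tetraspanin that organises membrane partners, had the smallest p. It stood at 546, 554 and 644 CPM in WT chow and at 899, 940 and 950 CPM in WT HFD, a difference of 0.68 ± 0.13 (log2, SE; edgeR adjusted p = 0.0107). The WT HFD libraries lay close together, and all were far above WT chow. Spp1, the secreted phosphoprotein that binds CD44 and integrins, was at 3010, 4379 and 2810 CPM in WT chow and at 4878, 5444 and 5812 CPM in WT HFD. It varied more, and its log2 fold change of 0.66 ± 0.22 was just past the threshold (edgeR adjusted p = 0.0449). Lgals3, which binds glycans on the cell surface and on damaged lysosomes, was at 4211, 4357 and 5260 CPM in WT chow and at 6387, 5912 and 6112 CPM in WT HFD, a log2 fold change of 0.41 ± 0.12 (edgeR adjusted p = 0.0350).

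Gpnmb and Fabp5 did not follow. Gpnmb was at 21817, 17652 and 19540 CPM in WT chow and at 17392, 15075 and 13287 CPM in WT HFD, so it was lower in every HFD library, with a log2 fold change of -0.37 ± 0.14 that did not pass (edgeR adjusted p = 0.0747); it passed in DESeq2 (0.0463) and in edgeR with library totals (0.0393). Fabp5, the carrier of fatty acids in the cytosol, was at 675, 600 and 950 CPM in WT chow and at 751, 729 and 702 CPM in WT HFD, with a log2 fold change of -0.03 ± 0.18 (edgeR adjusted p = 0.919). The WT HFD values of Fabp5 fell inside the range of WT chow.

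The calls in WT depended on settings that bear on transcript length and on single libraries. Transcript length of the 7 genes ran from 564 bases for Tyrobp, shorter than all but 2.58% of genes, to 2430 bases for Gpnmb, and log2 fold changes for diet in WT had a Spearman's rho of -0.53 with length across genes. After a correction of each library for length and GC content, 2 of the 7 genes were called, Trem2 (log2 fold change 0.39, edgeR adjusted p = 0.0284) and Cd9 (0.41, 0.0190), against 15.6% of all genes. Lgals3 then had 0.29 (adjusted p = 0.0504), Spp1 0.39 (0.260) and Tyrobp 0.29 (0.108), and their direction was kept, while Fabp5 had -0.34 (0.0583). Leaving out WT chow replicate 1 or WT HFD replicate 3 left 0 of 7 called in edgeR, where 1.05% and 0.778% of all genes were still called. The log2 fold changes moved less, with Cd9 at 0.65 and 0.67 and Trem2 at 0.49 and 0.52. Leaving out WT chow replicate 2 or WT HFD replicate 1 left Cd9 alone (2.59% and 3.73% of all genes called), and leaving out WT HFD replicate 2 left Cd9 and Trem2 (13.6%). Spp1 also lost its call without WT chow replicate 3 (edgeR adjusted p = 0.0800), without meKO chow replicate 1 (0.0536), and with library totals in place of TMM factors (0.0643). Without WT chow replicates 1 and 2 together, a setting chosen after seeing the data that assumes the lone WT chow library to vary like the other groups, 0 of 7 and 0.122% of all genes were called. The log2 fold changes were then 0.38 for Trem2, 0.53 for Cd9, 0.22 for Lgals3 and -0.39 for Fabp5, while that of Spp1 was 0.94, above its 0.66 with all libraries.

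Markers of other cells moved in the same contrast, and their part in these differences was not tested. The resident large peritoneal macrophage list (8 of 8 listed) summed to 226 to 687 CPM in WT chow and 970 to 1588 CPM in WT HFD. Cd5l, a secreted scavenger protein, was the largest part of this, at 155 to 506 CPM and 911 to 1486 CPM (edgeR adjusted p = 0.0536), whereas Gata6, the factor that defines these cells, was at 1.72 to 2.81 CPM and 2.47 to 3.43 CPM. Alox15 of the same list fell by 1.91 on the log2 scale (edgeR adjusted p = 0.0498). The mesothelium and fibroblast list (12 of 13 listed) summed to 56.6 to 102 CPM in WT chow and 109 to 159 CPM in WT HFD, with Dcn, Krt8 and Krt19 called higher, while its mesothelial marker Msln was at most 0.873 CPM in any library. Platelet markers (3 of 5 listed, mostly Pf4) summed to 79.8 to 182 CPM and 193 to 269 CPM, with 0 called in edgeR. B cell markers (6 of 7 listed) went the other way, from 131 to 161 CPM in WT chow to 80.2 to 96.1 CPM in WT HFD. Dendritic cell markers (6 of 6 listed) summed to 31.3 to 46.7 CPM and 15.9 to 24.3 CPM, with Flt3 called lower. Mast cell markers (8 of 8 listed) overlapped, at 214 to 256 CPM in WT chow and 203 to 235 CPM in WT HFD, with Kit alone called lower. Neutrophil markers (6 of 9 listed) summed to 54.0 to 80.8 CPM and 70.9 to 74.1 CPM. Among them S100a9 (0.196 to 0.368 CPM in WT chow, 0.757 to 0.963 CPM in WT HFD; edgeR adjusted p = 0.0224) and S100a8 (7.81 to 14.4 and 16.6 to 18.1 CPM; 0.0396) were called higher and Retnlg lower.

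**Figure D2:**
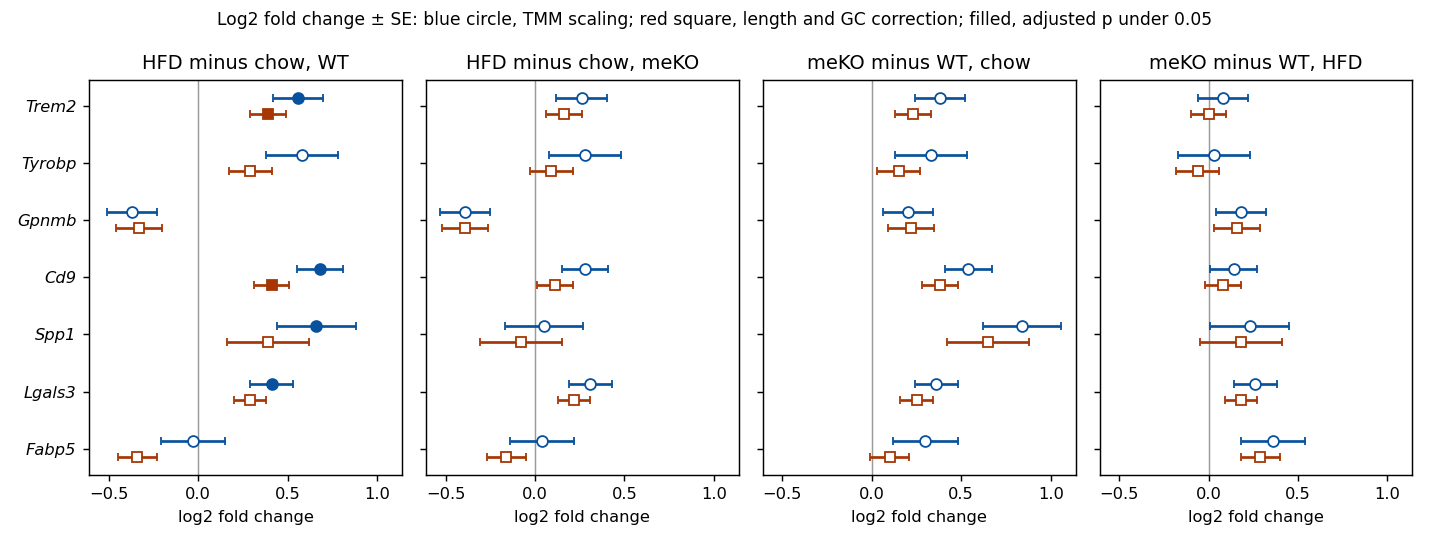
Log2 fold change of each gene with its SE (horizontal axes) in the 4 simple contrasts, with blue circles for TMM scaling, red squares for the length and GC correction, and filled symbols for an adjusted p under 0.05. Filled symbols appear only in the panel for diet in WT, and Gpnmb lies left of 0 in both diet panels.

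In meKO macrophages the same diet gave 0 of 7 called genes in edgeR, DESeq2 and limma-voom with and without quality weights, where edgeR called 0.105% of all genes. An unadjusted p under 0.05 was found for 3 of the 7 (Lgals3, Cd9 and Gpnmb) and for 1962 of all 12339 genes. Lgals3 was at 6089, 6348 and 5352 CPM in meKO chow and at 6671, 8284 and 7023 CPM in meKO HFD, and Gpnmb at 23398, 20745 and 23697 CPM and at 15796, 15731 and 20232 CPM. These were the 2 genes whose groups did not overlap, Lgals3 higher and Gpnmb lower on HFD, against 19.7% of all genes. Their log2 fold changes were 0.31 ± 0.12 and -0.39 ± 0.14 (SE; edgeR adjusted p = 0.279 and 0.253). Without meKO chow replicate 2 they were 0.35 and -0.46, again with 0 of 7 called.

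The receptor pair had overlapping groups in meKO. Trem2 was at 843, 836 and 708 CPM in meKO chow and at 821, 1160 and 888 CPM in meKO HFD, a log2 fold change of 0.26 ± 0.14 (edgeR adjusted p = 0.363). Tyrobp was at 1393, 1446 and 1168 CPM and at 1268, 2143 and 1467 CPM, with a log2 fold change of 0.28 ± 0.20. In both genes meKO HFD replicate 2 was the high library. Cd9 was at 937, 807 and 794 CPM in meKO chow and at 890, 1222 and 965 CPM in meKO HFD, and its log2 fold change of 0.28 ± 0.13 compares with 0.68 in WT. Spp1, at 5674, 7770 and 4758 CPM in meKO chow and 6759, 7499 and 4647 CPM in meKO HFD, had 0.05 ± 0.22, and Fabp5, at 831, 1088 and 816 CPM and 804, 1133 and 867 CPM, had 0.04 ± 0.18.

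The test of whether the diet effect differed between genotypes called 0 of 7 genes in edgeR, DESeq2 and limma-voom with and without quality weights, and 0.0162% of all genes in edgeR. A single gene of the 7, Cd9, had an unadjusted p under 0.05, as did 756 of all 12339 genes. The interaction of Cd9 was -0.40 ± 0.18 on the log2 scale (edgeR adjusted p = 0.797). For Spp1 it was -0.61 ± 0.30 (edgeR adjusted p = 0.797) and for Trem2 -0.30 ± 0.20 (0.812). A different diet effect in meKO was thus not shown for any of the 7 genes, although 4 were called in WT and 0 in meKO.

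Averaged over genotypes, the diet contrast called 5 of the 7 genes in edgeR, against 30.2% of all genes. Cd9 (log2 fold change 0.48 ± 0.09, edgeR adjusted p = 0.00560), Trem2 (0.41 ± 0.10, 0.0120), Lgals3 (0.36 ± 0.09, 0.0124) and Tyrobp (0.43 ± 0.14, 0.0360) rose, where 14.9% of all genes rose. Gpnmb fell by 0.38 on the log2 scale (SE 0.10, edgeR adjusted p = 0.0161), where 15.3% of all genes fell. After the length and GC correction 25.2% of all genes were called and again 5 of the 7: Trem2, Cd9 and Lgals3 higher, and Gpnmb (-0.36) and Fabp5 (-0.25, edgeR adjusted p = 0.0391) lower. Without WT chow replicates 1 and 2 the count was 0, where 1.64% of all genes were called. Spp1 (0.36 ± 0.15, edgeR adjusted p = 0.0876) passed when WT chow replicate 2, meKO chow replicate 2 or meKO HFD replicate 3 was left out (0.0332 to 0.0428). Tyrobp lost its call (edgeR adjusted p up to 0.0925) when WT chow replicate 1 or 2, WT HFD replicate 1 or 3, meKO chow replicate 1 or 3, or meKO HFD replicate 2 was left out, while Trem2, Cd9, Lgals3 and Gpnmb kept theirs under every single omission.

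On chow, all 7 genes were higher on average in meKO than in WT, but edgeR called 0 of them and 0.0810% of all genes. An unadjusted p under 0.05 was found for 4 of the 7 (Trem2, Cd9, Spp1 and Lgals3) and for 2447 of all 12339 genes. In the same 4 genes every meKO chow library was above every WT chow library, against 17.1% of all genes with groups apart in either direction. Spp1 had the largest difference, with 3010, 4379 and 2810 CPM in WT chow and 5674, 7770 and 4758 CPM in meKO chow, a difference of 0.84 ± 0.22 (log2, SE; edgeR adjusted p = 0.103). Cd9 had 0.54 ± 0.13 (edgeR adjusted p = 0.0846), Trem2 0.38 ± 0.14 (0.181) and Lgals3 0.36 ± 0.12 (0.153).

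The genotype result on chow varied with the tool and with single libraries, among the 7 genes and among all genes. DESeq2 called Spp1 (adjusted p = 0.0101) and Cd9 (0.00603) and 4.33% of all genes, and limma-voom called 0 of the 7 and 0.0162% of all genes. Voom with library quality weights called 6 of the 7 genes, all but Gpnmb, where it called 32.8% of all genes. Without WT chow replicate 3, which leaves the 2 WT chow libraries that lean to long transcripts, edgeR called the same 6 genes and 20.6% of all genes. Without WT chow replicates 1 and 2 it called 0 of the 7 and 0.0243% of all genes, with Cd9 at 0.39 and Spp1 at 1.11. Without meKO chow replicate 2, the library lowest in Lyz2, the log2 fold change of Spp1 was 0.63 and that of Cd9 was 0.58, with 0 called. Log2 fold changes in this contrast had a Spearman's rho of -0.57 with transcript length across genes. After the length and GC correction Spp1 had 0.65, Cd9 0.38, Lgals3 0.25 and Trem2 0.23, with 0 called.

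On HFD no difference between genotypes was called. EdgeR called 0 of 7 genes and 0.0810% of all genes. DESeq2 and limma-voom with and without quality weights also called 0 of the 7. An unadjusted p under 0.05 was found for 0 of 7, against 563 of all 12339 genes. Groups did not overlap for Lgals3 and Fabp5, both higher in meKO, against 10.3% of all genes. Lgals3 had a log2 fold change of 0.26 ± 0.12 and Fabp5 of 0.36 ± 0.18, and in the other 5 genes it lay between 0.03 and 0.23. Averaged over diets, edgeR called 0 of 7 genes and 0.170% of all genes. Of all 12339 genes 2183 had an unadjusted p under 0.05, and so did 5 of the 7 (Trem2, Cd9, Spp1, Lgals3 and Fabp5). DESeq2 called 3 of these (Cd9, Lgals3 and Spp1) and 2.97% of all genes, and limma-voom 0 and 0.162%. Voom with quality weights called all 5 and 31.1% of all genes. EdgeR without WT chow replicate 3 called Cd9, Lgals3 and Fabp5 and 11.3% of all genes. S100a9, a neutrophil and monocyte gene named after its values were seen, was at 0.196 to 0.963 CPM in WT and 1.87 to 4.69 CPM in meKO. S100a8 overlapped, at 7.81 to 18.1 CPM in WT and 13.1 to 26.4 CPM in meKO. The neutrophil list (6 of 9 listed) summed to 54.0 to 80.8 CPM in WT and 78.4 to 115 CPM in meKO. On each diet edgeR called 1 gene of this list higher in meKO and 0 lower. The part of these genes in the differences above was not tested.

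The order of the 4 group means differed between genes. For Trem2 the means rose in the order WT chow (614 ± 80.5 CPM; SD, n = 3), meKO chow (796 ± 76.0), WT HFD (907 ± 69.2) and meKO HFD (956 ± 179). Cd9, Lgals3 and Tyrobp had the same order, with WT chow at 581, 4609 and 1062 CPM and meKO HFD at 1026, 7326 and 1626 CPM. Neighbours in the order were apart only between WT chow and meKO chow for Trem2, Cd9 and Lgals3 and between WT HFD and meKO HFD for Lgals3. Spp1 put WT HFD (5378 ± 470 CPM) before meKO chow (6067 ± 1544), and only WT chow (3400 ± 854) was apart from its neighbour. Gpnmb ran from WT HFD (15251 ± 2059 CPM) through meKO HFD (17253 ± 2580) and WT chow (19670 ± 2086) to meKO chow (22613 ± 1625), with overlap at each step. Fabp5 ran from WT HFD (727 ± 24.8 CPM) to meKO HFD (935 ± 175), also with overlap at each step.

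Gpnmb was set against each other gene within a library, a ratio that scaling factors do not touch and that was chosen after its values were seen. The ratio of Gpnmb to Trem2 CPM was 40.8, 28.9 and 28.1 in WT chow, 27.7, 24.8 and 33.5 in meKO chow, 19.0, 18.1 and 13.7 in WT HFD, and 19.2, 13.6 and 22.8 in meKO HFD. All 6 chow libraries lay above all 6 HFD libraries. The log2 ratio was lower on HFD by a difference of -0.80 (exact two-sided permutation test over 924 splits, n = 6 against 6, p = 0.00216, adjusted over 6 ratios p = 0.00324). Full separation fixes this p at the smallest that 924 splits can give. The 6 ratios share Gpnmb and were chosen from these values. Their p-values therefore describe the separation and are not independent support. The ratios to Cd9 (-0.86), Tyrobp (-0.82) and Lgals3 (-0.75) also separated the 6 chow from the 6 HFD libraries, with the same p, while those to Spp1 (-0.76, adjusted p = 0.0286) and Fabp5 (-0.40, adjusted p = 0.0390) overlapped. With the length and GC correction the difference was -0.64 for Trem2, -0.54 for Spp1 and -0.12 for Fabp5 (exact permutation test, adjusted p = 0.00432, 0.0779 and 0.310).

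**Figure D3:**
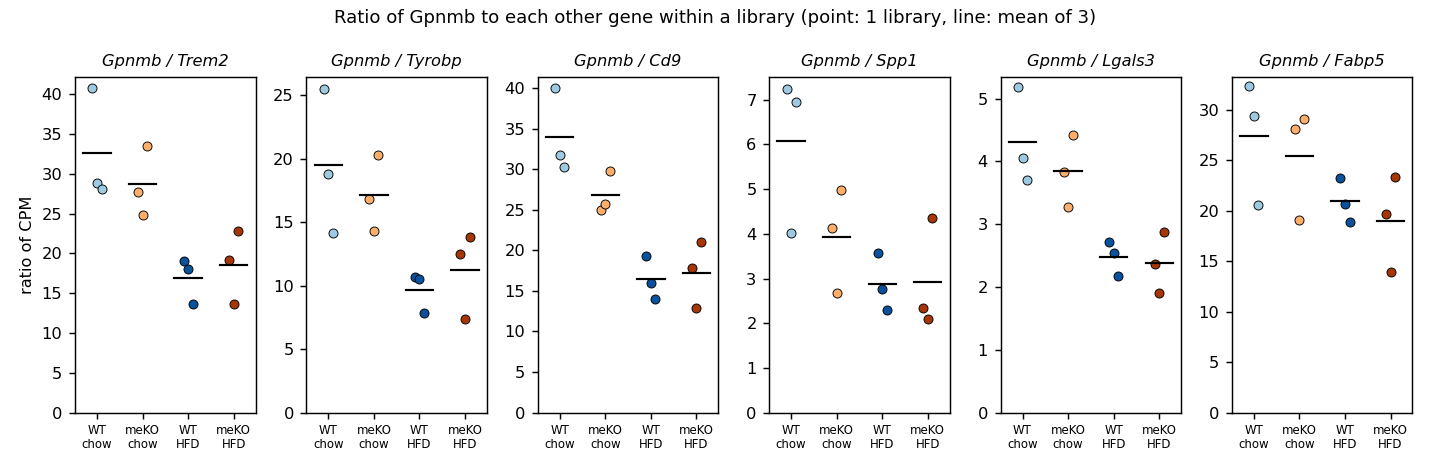
Ratio of Gpnmb CPM to the CPM of each other gene (vertical axes) in the 4 groups (horizontal axes), with a point per library and a line at the mean of 3. For Trem2, Tyrobp, Cd9 and Lgals3 all 6 chow libraries lie above all 6 HFD libraries.

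Across the 12 libraries the receptor and its adaptor had the highest correlation of the 21 pairs. Trem2 and Tyrobp had a Pearson's r of 0.96 (permutation p = 1e-05, the smallest that 100000 resamples can give, adjusted p = 0.000105) and a Spearman's rho of 0.96 (permutation p = 2e-05, adjusted p = 0.00042). Without the 2 libraries farthest from the median r was 0.90, within groups it was 0.96, and after the length and GC correction 0.90. Within groups Tyrobp and Lgals3 were slightly more alike, at 0.97. Within groups and after the correction that pair had 0.89, against 0.88 for Trem2 and Tyrobp. Of 21 pairs, 10 passed the adjusted threshold for r, and 16 were positive. Within groups and after the correction, the passing pairs of Cd9 with Tyrobp, Lgals3 and Spp1 had -0.06, -0.11 and 0.18. Those of Spp1 with Trem2 and Lgals3 had 0.16 and 0.02, and those of Lgals3 with Trem2 and Fabp5 had 0.79 and 0.63. The share over pairs of all genes is not given, and genes outside the set, such as Cox6c, reached an r of 0.989 with Trem2. Trem2 and Cd9 also had an r of 0.95 (permutation p = 1e-05; rho 0.90, permutation p = 0.00019; 0.91 without the 2 farthest), but within groups and after the correction it was -0.04. Gpnmb and Trem2 had -0.49 (permutation p = 0.103; rho -0.45, permutation p = 0.149; -0.34 without the 2 farthest), and Gpnmb was negative with 5 of the other 6 genes.

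The genes most like each of the 7 over the 12 libraries were taken from 9319 genes, as a description. Trem2 was closest to Fcf1, Cox6c and Psmc3 (r = 0.989 each). Tyrobp was closest to Mvb12a (0.994), Ndufb5 and Fcer1g (0.993 each); Fcer1g encodes the other signalling adaptor of myeloid receptors. Cd9 was closest to Cyba (0.977), a subunit of the phagocyte oxidase, Ndufa9 and Zswim7, and Lgals3 to Ercc1, the tetraspanin Cd151 (0.971 each) and Aamp. Transcripts of these 12 genes are 606 to 1756 bases long, and the 12 points share each library's lean along transcript length. Gpnmb was closest to B4gat1 (0.927), Ttyh2 and Mrgpre, Spp1 to Tmem165 (0.909), Pef1 and Hyal2, and Fabp5 to Xlr4b (0.933), a gene without a symbol and Gstp-ps. None of the 7 was among the 3 nearest of another.

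Of 28 further genes reported in lipid-associated macrophages, 27 were in the table, and in WT the diet contrast called 8 higher and 1 lower in edgeR, where it called 9.5% of all genes higher and 11.8% lower. After the length and GC correction the counts were the same, with Vat1 and Axl called in place of Mmp12 and Ctsl, and 8.91% of all genes were called higher and 6.65% lower. Beside the 4 described next, those higher were Lgals1, Mmp12, Ctsl and Cd36, and the gene called lower was Itgax (log2 fold change -0.78), these and the replacements named after their values were seen. The median log2 fold change of the 27 was 0.28, against -0.03 over all genes. Anxa2, a membrane-binding annexin, went from 1325 ± 75.8 CPM on chow to 2479 ± 222 CPM on HFD in WT (SD, n = 3), a rise of 0.90 ± 0.13 on the log2 scale (edgeR adjusted p = 0.00308). Cstb, a cathepsin inhibitor, rose by 0.93 ± 0.21 (edgeR adjusted p = 0.0163), the protease gene Ctsk by 0.67 ± 0.15 (0.0158), and Plin2, which coats lipid droplets, by 0.45 ± 0.11 (0.0179). In meKO these 4 genes had 0.48, 0.66, 0.41 and 0.37. There and in the genotype contrasts on chow and on HFD edgeR called 0 of the 27. At an unadjusted p under 0.05 there were 8 for diet in meKO, 13 for genotype on chow and 4 for genotype on HFD. Over all 12339 genes those counts were 1962, 2447 and 563. Averaged over diets, 1 of the 27, the protease gene Ctsl, was called higher in meKO, against 0.170% of all genes called in either direction. After the length and GC correction 0 of the 27 were called in that contrast, against 23 of all 12339 genes.

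**Figure D4:**
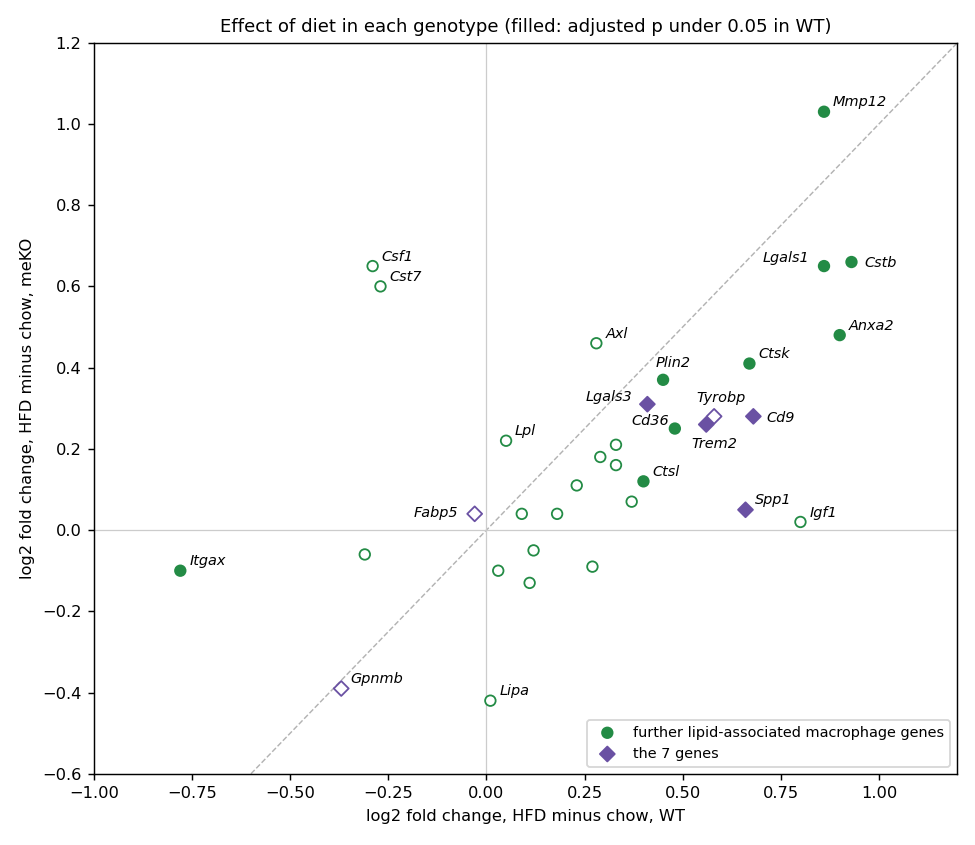
Log2 fold change of HFD against chow in WT (horizontal axis) and in meKO (vertical axis) for the 7 genes (purple diamonds) and 27 further lipid-associated macrophage genes (green circles), with filled symbols for an adjusted p under 0.05 in WT and a dashed line of equal change. Of the filled symbols Mmp12 and Itgax lie above the line and the others below it, and Gpnmb lies left of 0 in both genotypes.

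Of 21 genes of TREM2 and TYROBP signalling, edgeR called 1 higher and 5 lower in WT on HFD, against 9.5% higher and 11.8% lower of all genes, with a median log2 fold change of -0.24. The gene called higher was Lat2, and the fifth called lower, beside the 4 described next, was Pik3cd, both named after their values were seen. Grb2, an adaptor, fell by 0.46 (381 ± 8.19 to 278 ± 8.21 CPM, SD, n = 3; edgeR adjusted p = 0.0121), and Pik3r1, a subunit of phosphoinositide 3-kinase, fell by 0.54 (edgeR adjusted p = 0.0207). Inpp5d, the inositol phosphatase SHIP1 that restrains TREM2 signalling, fell by 0.47 (edgeR adjusted p = 0.0230), but had -0.16 after the length and GC correction (0.186). Ms4a4a, a tetraspan protein tied to soluble TREM2, fell by 1.34 from 10.4 ± 1.55 to 4.12 ± 1.14 CPM (SD, n = 3; edgeR adjusted p = 0.0198). After the correction 1 was called higher and 3 lower, against 8.91% and 6.65% of all genes, with a median of -0.09.

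Of 11 other receptors that use TYROBP, edgeR called 4 in WT on HFD, against 21.3% of all genes, with 3 higher and 1 lower: Pilrb1 (log2 fold change 0.71, 13.5 ± 1.07 to 22.1 ± 2.89 CPM; SD, n = 3), Pilrb2 (0.57), Sirpb1a (0.61) and Cd300lb (-0.33). After the length and GC correction 0 of 11 were called, against 15.6% of all genes. Pilrb1 and Pilrb2, like the Sirpb1 genes, are near copies, so their split of reads is uncertain. Among 9 receptors for osteopontin and GPNMB, Itga4 fell by 0.92 (129 ± 25.9 to 68.4 ± 1.76 CPM; edgeR adjusted p = 0.00803) and Itgb3 by 0.81 (0.0327), and 0 rose, where 11.8% of all genes fell and 9.5% rose. After the correction Itgb3 had -0.41 (adjusted p = 0.205) and Itga4 -0.57 (0.0191), and Itgb1 was called higher, named after its value was seen.

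The MiT/TFE factors switch on lysosomal genes, among them Gpnmb. The list joins these factors with their regulators, so its counts do not measure the activity of the factors. A link to the level of Gpnmb was not tested. Of 9 factors and regulators, edgeR called 3 lower and 0 higher in WT on HFD, where 11.8% of all genes were called lower. Averaged over genotypes 5 were called lower (Fnip1, Fnip2, Rragc, Mitf and Tfe3) and 0 higher, against 15.3% lower of all genes. After the length and GC correction 5 were called lower (Fnip2, Rragc, Tfec, Mitf and Tfe3), against 11.7% of all genes. Rragc, a GTPase that brings these factors to the lysosome, fell by 0.44 (312 ± 14.5 to 231 ± 8.35 CPM; SD, n = 3; edgeR adjusted p = 0.0187). Fnip2 fell by 0.63 (edgeR adjusted p = 0.0244) and Tfe3 by 0.46 (0.0449), and in meKO the 3 genes had -0.31, -0.29 and -0.35 with 0 of 9 called. After the correction Rragc alone of the 3 was called in WT (-0.38, adjusted p = 0.0172).

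Relatives of the 7 genes are read against the 9.5% of all genes called higher for diet in WT. Of 15 tetraspanins other than Cd9, edgeR called Cd53 (log2 fold change 0.48 ± 0.15, adjusted p = 0.0366) and Cd151 (0.31 ± 0.09, 0.0372) higher in WT on HFD, both also after the length and GC correction. Of 7 galectins and fatty acid binding proteins, Fabp3 (1.40 ± 0.35, edgeR adjusted p = 0.0213), Lgals1 (0.86 ± 0.24, 0.0284) and Lgals9 (0.40 ± 0.13, 0.0398) rose. Lgals9 had 0.29 after the correction (edgeR adjusted p = 0.0537), and Lgals1 is also among the 27 genes above. Fabp3 is the muscle form and was low, with 4.06 ± 0.961 CPM on chow and 10.7 ± 2.45 CPM on HFD in WT (SD, n = 3), whereas Fabp5 was at 742 and 727 CPM. In meKO 0 genes of these lists were called for diet in edgeR.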

How the data were processed

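RNA-seq counts of 12 libraries were analysed. The authors deposited counts as whole numbers, listed by Entrez identifier and symbol. The submitters' processing notes name mm10 and DESeq2, with no role; the aligner, the counting tool and its strand setting are not given in the sources used here. Per the labels' protocols, extraction used Trizol and the libraries were of the TruSeq type. Every count column was matched to a sample by its title. A treatment that the labels give for all groups alike, controls included, is not reported here.

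Counts were fitted with edgeR 4.0.16 in R 4.3.3 (TMM factors, filterByExpr, which kept all 12339 genes, robust dispersions, 4 group means over the 12 libraries). Two-sided quasi-likelihood F tests over 7 contrasts were adjusted by Benjamini-Hochberg over all genes, at a threshold of 0.05. CPM values are TMM-scaled, log2 CPM used a prior count of 2, and an SE is that of a log2 fold change. The fitting steps were tested on simulated data with log2 changes of 1 and 2, of which 96% and 100% were recovered, with 12 false calls. These changes are larger than those of the 7 genes in the main fit. The simulated libraries had no lean along transcript length, so the test does not cover it. Each replicate pair differed by far more than sampling noise (chi-square over degrees of freedom of 16.9 or more), so none was counted as copies. With 3 libraries against 3, an exact permutation test cannot go below 0.1, so single genes rest on the shared model.

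Length and GC content came from the GENCODE M21 transcript of median length, for 93.5% of genes, and the correction used splines with 5 degrees of freedom each. Other settings tried were DESeq2 1.42.0, limma-voom (limma 3.58.1) without and with quality weights for libraries, scaling by median-of-ratios factors or by library totals alone, a low-count filter that was absent or asked for 10 counts in each library, non-robust dispersions, a fit to only the groups compared, and leaving out each library. Leaving out WT chow replicates 1 and 2 together was chosen after seeing the data. The 7 genes and the gene lists were chosen with earlier results of these data known. The rule named every one of the 7 genes, up to 4 called genes per list with the smallest p, and the 3 genes nearest to each of the 7 by Pearson's r among those with a mean of at least 5 CPM; names outside it were chosen after their values were seen.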

Additional observations from a re-analysis of the deposited data

How the results depend on the processing

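Over 49 log2 fold changes of the 7 genes and their alternatives, 984 of 1106 values kept their direction and side of the threshold, 38 fell short of it, 37 passed it and 47 changed sign, in 15 of the 49. The values kept include the setting without a low-count filter. That setting could not differ, because the filter of the main fit removed no gene. Of the sign changes only Fabp5 for diet averaged under the length and GC correction was past the threshold (-0.25). For genotype on chow, 0 called became 2 in DESeq2, 6 with quality weights and 0 to 6 on leaving out single libraries; averaged over diets, 3, 5 and 0 to 3. For diet in WT, 4 called became 2 under the correction, 0 without WT chow replicates 1 and 2, and 0 to 5 on leaving out single libraries; for diet averaged, 5 became 0 without those 2 and 4 to 6. Among uncalled values, quality weights gave Tyrobp -0.05 and Spp1 -0.03 for genotype on HFD, Spp1 -0.24 for diet in meKO, Fabp5 0.15 and -0.04 for diet in WT and meKO, and interactions of 0.11 for Gpnmb and -0.20 for Fabp5. The correction gave Trem2 0.00 and Tyrobp -0.06 for genotype on HFD, and Spp1 -0.08 and Fabp5 -0.16 for diet in meKO. Library totals gave Fabp5 0.00 for diet in meKO and -0.06 averaged, and a Gpnmb interaction of 0.03. Without WT chow replicates 1 and 2, Tyrobp had -0.06 for genotype on chow, -0.01 averaged and an interaction of 0.09, Lgals3 an interaction of 0.08, and Fabp5 -0.06 for genotype on chow and -0.18 for diet averaged. Leaving out single libraries gave ranges of Trem2 -0.09 to 0.18, Tyrobp -0.22 to 0.19 and Cd9 -0.01 to 0.23 for genotype on HFD, Gpnmb -0.17 to 0.07 and Fabp5 -0.17 to 0.20 for the interaction, Spp1 -0.09 to 0.26 and Fabp5 -0.13 to 0.17 for diet in meKO, Fabp5 -0.15 to 0.20 for diet in WT, Fabp5 -0.08 to 0.11 for diet averaged. Calls among all genes moved too. For genotype on chow, 0.0810% became 4.33% in DESeq2, 32.8% with quality weights and 0.0162% to 20.6% on leaving out single libraries. For genotype averaged over diets, 0.170% became 2.97%, 31.1% and 0.0648% to 11.3%. For diet in WT 21.3% became 15.6% under the correction and 0.778% to 39.9% on leaving out single libraries. For diet averaged, 30.2% became 15.9% to 43.2% on leaving out single libraries. The cause was not tested. No paired analysis was possible because the labels number no replicates across groups. Depth did not limit the 7 genes.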
